A study of Mus musculus and Homo sapiens with 22 samples.

Results

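C/D box snoRNAs are short nuclear RNAs, and this account describes them in RNA from isolated tau aggregates and from the cells or brains the aggregates came from. The members were all genes whose symbol is SNORD followed by a digit in the HEK293 tables, or Snord followed by a digit in the mouse tables. They were 260 of 23674 genes in HEK293 cells, of which 128 had a read, and 99 of 45093 genes in mouse brain, of which 54 had a read. The other snoRNA class, the H/ACA box snoRNAs, had 101 and 42 listed genes. The related small Cajal body RNAs (scaRNAs) had 22 and 9.

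A C/D snoRNA carries the short C and D motifs, which bind the proteins SNU13, NOP56, NOP58 and fibrillarin (FBL). The RNA pairs with a target, usually ribosomal RNA, and fibrillarin methylates the ribose of the paired nucleotide. Some members, such as U3, U8, U14 and U22, act in cutting the ribosomal precursor RNA, others guide methylation of the spliceosomal U6 RNA, and several brain-expressed clusters at imprinted loci have no settled target. Most members are cut from introns of host genes, many of which encode ribosomal proteins, and mature members collect in the nucleolus.

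The report uses 16 of the 22 samples, in 8 of the 10 groups, with 2 samples in each group used. The HEK293 samples came from a human embryonic kidney line that expresses the repeat domain of P301S tau fused to YFP and to CFP. Every HEK293 culture was transfected, with a lipid reagent, with 200 ug of clarified brain homogenate from P301S tau mice and taken at 24 h, so no unseeded culture enters the comparison. One group was total RNA and the other RNA from aggregates enriched by differential centrifugation and fluorescence sorting of particles, with 1 plate per biological replicate. The mouse samples came from brains of rTg4510 mice, which express human P301L tau, and of rTg21221 mice, which express human wild-type (WT) tau. Both transgenes are under tetracycline control and driven by Camk2a-tTA, so expression centres on excitatory forebrain neurons. The P301L strain also carries a tdTomato and Syp/EGFP reporter that the WT tau strain lacks, so the tau allele and the strain cannot be told apart. Each genotype had total RNA, RNA of the fraction insoluble in 1% sarkosyl, and RNA bound after immunoprecipitation (IP) of that fraction with the tau-12 antibody. The titles of the P301L IP samples name P301S, while their strain and source name P301L, and they are called P301L here. No ages were given, and nothing says whether libraries share a mouse.

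Library depth was 13688054 and 13802428 reads for HEK293 total RNA, 1188394 and 878660 for the aggregates, and 2494058 to 10477617 for the mouse libraries. Defining markers of the labelled material were present. HEK293 libraries held VIM at 91.4 to 197 FPKM and MAPT at 44.1 to 113 FPKM, where MAPT may include reads of the tau transgene. Of markers of other tissues, HBB was listed at 0, while ALB reached 0.192 FPKM and PTPRC 0.0273 FPKM. Mouse libraries held Snap25, Camk2a, Slc17a7 and Mbp, with Alb at or below 0.13 FPKM and Myh6 reaching 0.343 FPKM. FPKM scales RPM (a gene's reads relative to its library's total) by gene length in kilobases. RPM without the length term were used where reads were summed over genes. Changes are differences of log2(FPKM + 1) with their standard error (SE), tested with limma across all genes, and called at a Benjamini-Hochberg adjusted p below 0.05. The libraries are bulk, so less of an RNA per cell or particle and fewer cells that hold it cannot be told apart. P-values measure the spread between the 2 libraries of a group, pooled over all groups of a fit and moderated across genes by limma. In mouse that spread may be technical. Fraction and preparation differ together, so an effect of the purification itself cannot be told apart from aggregate content. Reads of an intron-encoded snoRNA and of its host gene, and reads of near-identical copies, may have been split in ways the sources used here do not give, which makes values of such copies uncertain.

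The C/D snoRNAs took a larger share of reads in the HEK293 aggregates than in total RNA. They took 340 and 395 RPM in the total RNA libraries, with Wilson 95% intervals of 330.1 to 349.6 and 384 to 405. In the aggregates they took 3899 and 8168 RPM, with intervals of 3789 to 4013 and 7982 to 8358, which cover counting error only. Both aggregate libraries lay above both total libraries, and the shallower of the aggregate libraries had the higher share. The group means were 367 ± 38.9 and 6034 ± 3018 RPM (SD, n = 2), a ratio of 16.4. With 2 libraries against 2 the smallest p an exact permutation test allows is 0.333, so the share was not tested. The H/ACA snoRNAs went from 366 and 454 to 14349 and 29987 RPM, and the scaRNAs from 485 and 562 to 1055 and 1278. The shares rest on 10098 C/D reads in total RNA and 11811 in the aggregates, of which SNORD17 took 20.6%.

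Of the 260 members, 25 passed the filter of 10 reads expected in the shallowest library, and all 25 were called higher in the aggregates. Over all 10195 genes tested, 26.2% were called higher and 26% lower. The count of 25 gives no support for a general rise, because 24 of the 25 passed the filter through their aggregate reads and would have failed it on total RNA alone. SNORD17, a guide for large-subunit ribosomal RNA, is the exception. Adjusted p-values printed here and below for the 25 members come from this fit unless another filter is named. For the other 24 they are a description, because the aggregate reads themselves decided which members were tested. Changes among the 25 ran from 1.13 to 7.38 with a median of 4.10, and adjusted p-values (limma) from 0.00135 to 0.0373. SNORD88C stood just inside the filter with 10.1 expected reads and SNORD99 just outside with 9.89.

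**Figure D1:**
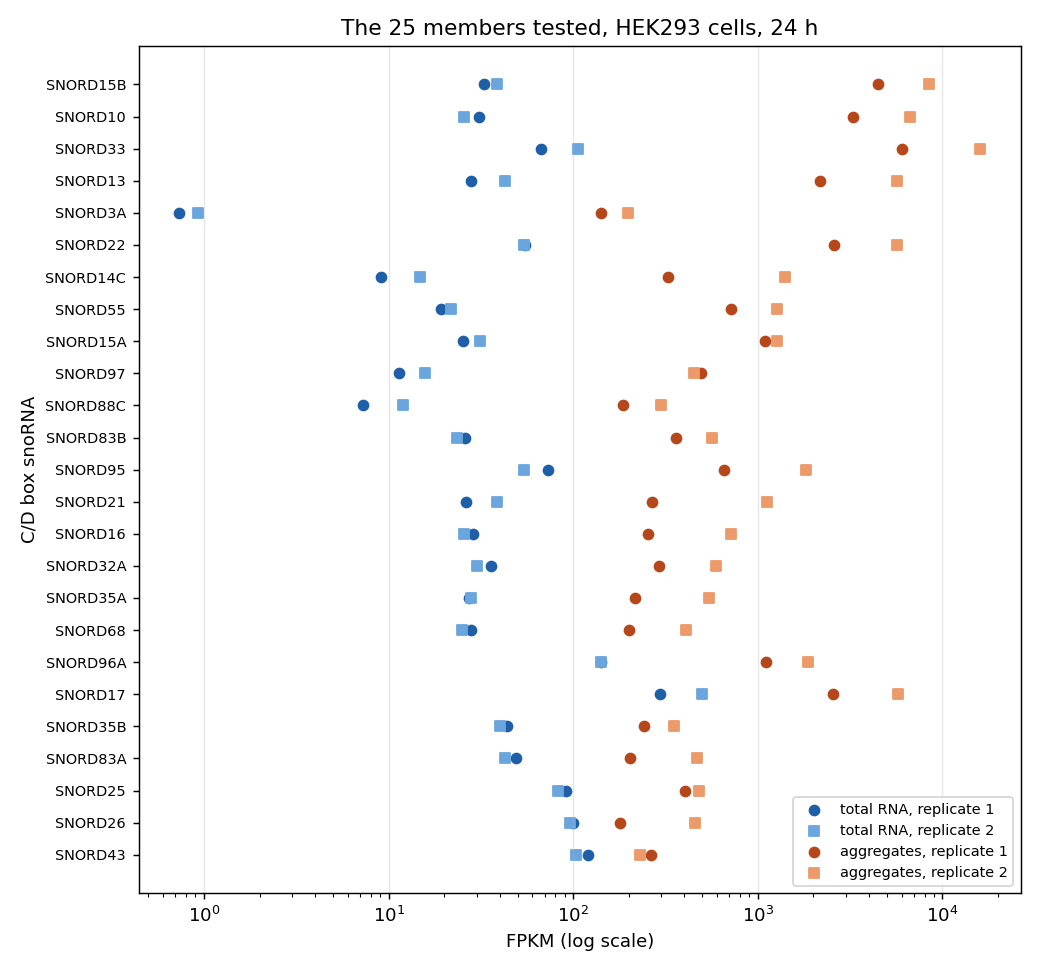
FPKM (log scale) of the 25 members that passed the read filter, 1 row per snoRNA in order of change; blue symbols are the 2 total RNA libraries and orange symbols the 2 aggregate libraries. In every row both orange symbols lie to the right of both blue symbols, from SNORD15B (33.0 and 38.7 against 4449 and 8458) down to SNORD43 (119.9 and 104 against 263 and 231).

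SNORD15B, which guides methylation of large-subunit ribosomal RNA, stood at 33.0 and 38.7 FPKM in total RNA and at 4449 and 8458 FPKM in the aggregates. These levels rest on 66, 78, 772 and 1085 reads, and the change was 7.38 ± 0.32 (SE, n = 2 per group, limma adjusted p = 0.00176). Its near copy SNORD15A, from another intron of the same host gene, stood at 25.2 and 31.3 FPKM in total RNA and at 1092 and 1277 FPKM in the aggregates, a change of 5.34 ± 0.15 (limma adjusted p = 0.00135). The copies were alike in total RNA, and the level listed for SNORD15B in the aggregates was several times that of SNORD15A. Which near copy a read belongs to is uncertain, so this difference between the copies is uncertain too. SNORD33, a guide from the RPL13A gene, reached the highest aggregate level of any member, with 67.0 and 106 FPKM in total RNA and 6019 and 16054 FPKM in the aggregates. Its change was 6.85 ± 0.51 (limma adjusted p = 0.00192), and its aggregate libraries differed from each other more than those of SNORD15A did. SNORD17 had the highest total RNA level, at 297 and 499.5 FPKM, and stood at 2539 and 5719 FPKM in the aggregates. Its change of 3.30 ± 0.46 (limma adjusted p = 0.00544) was below the median of the 25, and the 2 groups did not overlap. SNORD97, which guides methylation of a transfer RNA, stood at 11.3 and 15.8 FPKM in total RNA and at 492 and 449 FPKM in the aggregates, a change of 5.03 ± 0.17 (limma adjusted p = 0.0015). At the low end SNORD43 stood at 119.9 and 104 FPKM in total RNA and at 263 and 231 FPKM in the aggregates, a change of 1.13 ± 0.12 (limma adjusted p = 0.00296). SNORD26 had a change of 1.54 ± 0.44 (limma adjusted p = 0.0373), and its call was lost when the tested genes were chosen on total RNA instead (limma adjusted p = 0.059) or by 1 FPKM in 2 libraries (0.0721).

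A further fit removed a trend on gene length, taken in each library over all genes tested. After its removal 13 of the 25 members were called higher and 4 lower, beside 25.2% and 26.2% of all genes. Called lower were SNORD43 at −2.71, SNORD26 at −2.04, SNORD25 at −1.40 and SNORD35B at −0.57. SNORD83A (−0.48), SNORD96A (−0.16) and SNORD68 (−0.016) also turned sign without a call. SNORD95 (0.35), SNORD21 (0.85), SNORD16 (0.78), SNORD32A (0.22) and SNORD35A (0.22) kept their sign and lost the call (limma adjusted p = 0.339, 0.187, 0.066, 0.291 and 0.406). What part length had in the changes was not tested.

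A filter that does not use the aggregates, at least 10 reads in each total RNA library, kept 92 members. This filter was chosen after the values had been seen. A filter of 1 FPKM in 2 libraries, which aggregate reads can also pass, gave 46 higher and 10 lower of 122, beside 22.2% and 19.7% of all genes. Of the 92, 37 were called higher (40.2%), 5 lower (5.43%) and 50 were not called, while of all 13586 genes kept by it 21.1% were called higher and 19.1% lower. The median change was 0.94 over the 92 members and 0.06 over all genes. The ratio of group RPM, aggregates over total RNA, had a median of 2.07 with quartiles of 1.16 and 7.33. It exceeded 10 for 20 members, lay from 2 to 10 for 27, from 0.5 to 2 for 34 and below 0.5 for 11. The members thus differed among themselves far more than their median shows, and 50 had both aggregate libraries above both total libraries, 11 had both below and 31 overlapped. Over all genes the corresponding shares without overlap were 40.6% above and 34.5% below. The calls hang on both total libraries being present, and the counts also shifted without either aggregate library. Such a fit leaves 1 sample in a group, and the share of all genes called in it is not given here. The shifts are therefore not a result about the members. With the length trend removed the counts were 33 higher and 19 lower (35.9% and 20.7%, beside 18.4% and 21.5% of all genes). For comparison, 39 of 68 H/ACA snoRNAs were called higher and 8 lower, and 5 of 15 scaRNAs were called higher and 4 lower.

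**Figure D2:**
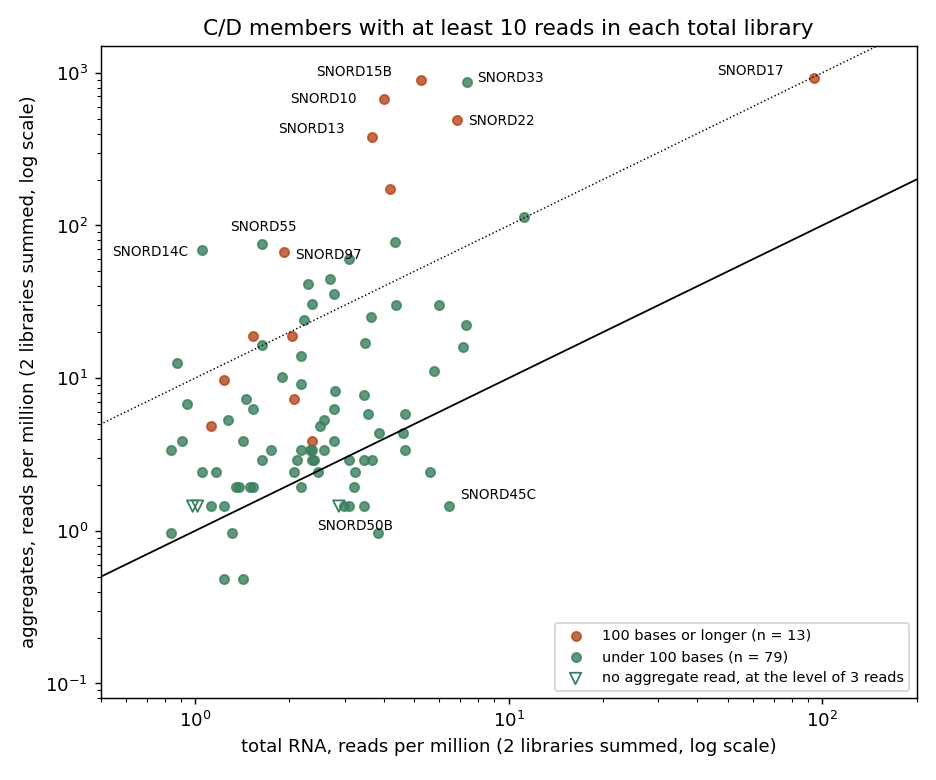
RPM (2 libraries summed, log scales) in the aggregates against total RNA for the 92 members with at least 10 reads in each total RNA library; the solid line marks equal levels and the dotted line a ratio of 10. The 13 members of 100 bases or longer lie above the solid line, the 79 shorter ones lie on both sides of it, and open triangles are the 3 members listed at 0 in the aggregates, drawn at the level of 3 reads.

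Longer members stood higher. The 13 members of 100 bases or more (104 to 237 bases) had a median ratio of 12.3 and a range of 1.64 to 172, with 12 called higher and 0 lower by limma. The 79 members of 64 to 99 bases had a median ratio of 1.63, with 25 called higher and 5 lower. Of all genes kept by the same filter, 21.1% were called higher and 19.1% lower. The cut at 100 bases was not part of the planned tests, and these calls too hang on both total RNA libraries. Across the 92 members, which share the same 4 libraries, Spearman's rho between length and the log2 ratio was 0.48 and Pearson's r 0.52, given as a description. The number of reads in total RNA had a rho of −0.04 with the same ratio. Length alone did not order the members: SNORD33 is shorter than 100 bases and had a ratio of 119, SNORD14C had 65.1 and SNORD55 had 46.4.

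Members that act in forming ribosomal RNA from its precursor (U8, U13, U14 and U22) moved unevenly. Of their 8 genes, 7 had 10 reads in each total RNA library, and limma called 3 higher and 1 lower under that filter and left 3 uncalled, with a median change of 0.92, close to the 0.94 over the 92 members. U3, the most abundant of this class in most cells, is listed as 5 genes, of which SNORD3A, SNORD3C and SNORD3D had reads. SNORD3A stood at 0.732 and 0.933 FPKM in total RNA and at 142 and 197 FPKM in the aggregates, from 7, 9, 118 and 121 reads. The groups did not overlap, but SNORD3A entered the test only through its aggregate reads, so its change of 6.52 ± 0.19 (SE) is given as a description. No U3 gene had 10 reads in each total RNA library. The 5 U3 genes together had 15 and 24 reads in the total libraries and 137 and 143 in the aggregates, or 1.10 and 1.74 against 115 and 163 RPM. U13 (SNORD13), which guides acetylation of small-subunit ribosomal RNA, stood at 28.1 and 42.5 FPKM in total RNA and at 2185 and 5669 FPKM in the aggregates, a change of 6.63 ± 0.49 (limma adjusted p = 0.00188). U22 (SNORD22), needed to form small-subunit ribosomal RNA, stood at 54.5 and 54.1 FPKM in total RNA and at 2591 and 5654 FPKM in the aggregates, a change of 6.11 ± 0.37 (limma adjusted p = 0.00178). Both were higher in each aggregate library than in any total library, and both p-values are from the first filter.

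U14, which acts in the same step as U22, split by copy. SNORD14C, from the heat shock gene HSPA8, stood at 9.13 and 14.8 FPKM in total RNA and at 325 and 1397 FPKM in the aggregates, a change of 5.74 ± 0.71 (limma adjusted p = 0.00419). The other copies of HSPA8 did not follow it: SNORD14D had 16 and 12 reads in total RNA and is listed at 0 in both aggregate libraries, and SNORD14E had 17, 14, 0 and 3 reads. SNORD14A and SNORD14B, from RPS13, had ratios of 1.13 and 1.92 and were not called. These copies are close in sequence, so which copy a read was given to is uncertain, and the family is better read as a whole. All 5 U14 copies together took 12.9 and 12.8 RPM in total RNA (176 and 177 reads) and 40.4 and 147 RPM in the aggregates (48 and 129 reads), so their summed share was higher in both aggregate libraries, with most of the aggregate reads given to SNORD14C. U8 (SNORD118), which acts on large-subunit ribosomal RNA, is listed at 0 in all 4 libraries.

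Of the 6 members that guide methylation of the spliceosomal U6 RNA, 3 had enough reads in total RNA to test, and all 3 were called higher, where 21.1% of all genes were. Under that filter none of the 3 was called without either total RNA library, as for the other members. SNORD10 stood at 30.9 and 25.5 FPKM in total RNA and at 3277 and 6684 FPKM in the aggregates. Its change was 7.33 ± 0.35 (limma adjusted p = 0.00176 under the first filter, which it passed through its aggregate reads). The values of SNORD94 and SNORD8 are from the filter on total RNA. SNORD94 stood at 11.2 and 11.1 FPKM in total RNA and at 92.1 and 199 FPKM in the aggregates (3.49 ± 0.38, limma adjusted p = 0.00678). SNORD8 stood at 7.97 and 12.5 FPKM in total RNA and at 30.6 and 62.1 FPKM in the aggregates, from only 4 and 6 aggregate reads (2.02 ± 0.40, limma adjusted p = 0.0223). With the length trend removed its change was 0.96 and the call was lost (limma adjusted p = 0.0564). For these 3 guides the aggregate libraries lay above the total libraries. SNORD7, SNORD9 and SNORD67 had 11 or fewer reads in every library and were not tested.

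Among guides of ribosomal RNA methylation, SNORD55 stood at 19.2 and 21.7 FPKM in total RNA and at 715 and 1266 FPKM in the aggregates (5.48 ± 0.28, limma adjusted p = 0.00176). SNORD95 stood at 73.1 and 54.3 FPKM in total RNA and at 656 and 1824 FPKM in the aggregates (4.10 ± 0.50, limma adjusted p = 0.00407). SNORD21 stood at 26.1 and 38.9 FPKM in total RNA and at 266 and 1126 FPKM in the aggregates (4.06 ± 0.70, limma adjusted p = 0.00908). In each the aggregate replicates differed widely and did not reach down to total RNA, and the calls of SNORD95 and SNORD21 are among those lost with the length trend removed. SNORD46, SNORD88A and SNORD49A, which the first filter left out, had changes of 3.16, 3.68 and 3.27. SNORD91B, with 222 annotated bases one of the longest members, changed less, by 1.70 ± 0.36 (limma adjusted p = 0.0252).

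All 5 lower calls rest on very few aggregate reads. SNORD50B had 79 reads over the total libraries, SNORD18B 27 and SNORD14D 28, and all 3 are listed at 0 in both aggregate libraries. At equal share the aggregates would have held 5.94, 2.03 and 2.11 reads of them, so for SNORD18B and SNORD14D a lower level was not detectable at this depth. SNORD27 went from 44 and 44 reads to 2 and 2 (−0.69 ± 0.16, limma adjusted p = 0.033), and SNORD11 from 41 and 48 reads to 3 and 2 (−0.42 ± 0.12, limma adjusted p = 0.0494). The calls of SNORD27, SNORD11, SNORD18B and SNORD14D were lost when the recovered reads were tested with limma's voom. A listed 0 can also be a failed estimate here, since the translation factor gene EIF4A1, used by every cell, is listed at 0 in all 4 libraries. The SNORD45 guides, from introns of RABGGTB, leaned lower without passing the test. SNORD45A, SNORD45B and SNORD45C together had 227 and 210 reads in total RNA and 10 and 0 in the aggregates, or 16.6 and 15.2 against 8.41 and 0 RPM, with ratios of 0.432, 0.253 and 0.224 and limma adjusted p-values of 0.243, 0.149 and 0.145.

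The imprinted C/D snoRNAs were nearly absent from the tables of this kidney line. Of 122 listed, 2 had a read, which were 1 read of the SNORD113 family in total RNA and 1 of the SNORD114 family in the aggregates. The 48 SNORD115 and 30 SNORD116 genes, known from Prader-Willi syndrome, are listed at 0 in all 4 libraries.

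Host genes gave a second view of the same transcripts, because a spliced host RNA and its intronic snoRNA start as 1 precursor. Hosts were taken from a list made by hand from general knowledge, with several added after the values had been seen. For 52 of the 92 members a host on the list was tested, and the host was called lower in the aggregates for 41 of them. Of all genes with 10 reads in each total RNA library, 19.1% were called lower and 21.1% higher. A host is counted once per member, SNHG1 for 6 of them, so 41 is not a number of separate hosts. The member's change lay above the host's for 40 of the 52, and 15 members were called higher while their host was called lower. RPS3, a ribosomal protein gene and host of SNORD15A and SNORD15B, fell by 1.23 on the log2 scale while those members had ratios of 41.4 and 172. RPL13A, the host of SNORD33, SNORD32A and SNORD35A, had a change of 0.12 (limma adjusted p = 0.446) beside ratios of 119, 12.8 and 12.9. These snoRNAs of RPL13A are also known from work on lipid-induced stress.

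**Figure D3:**
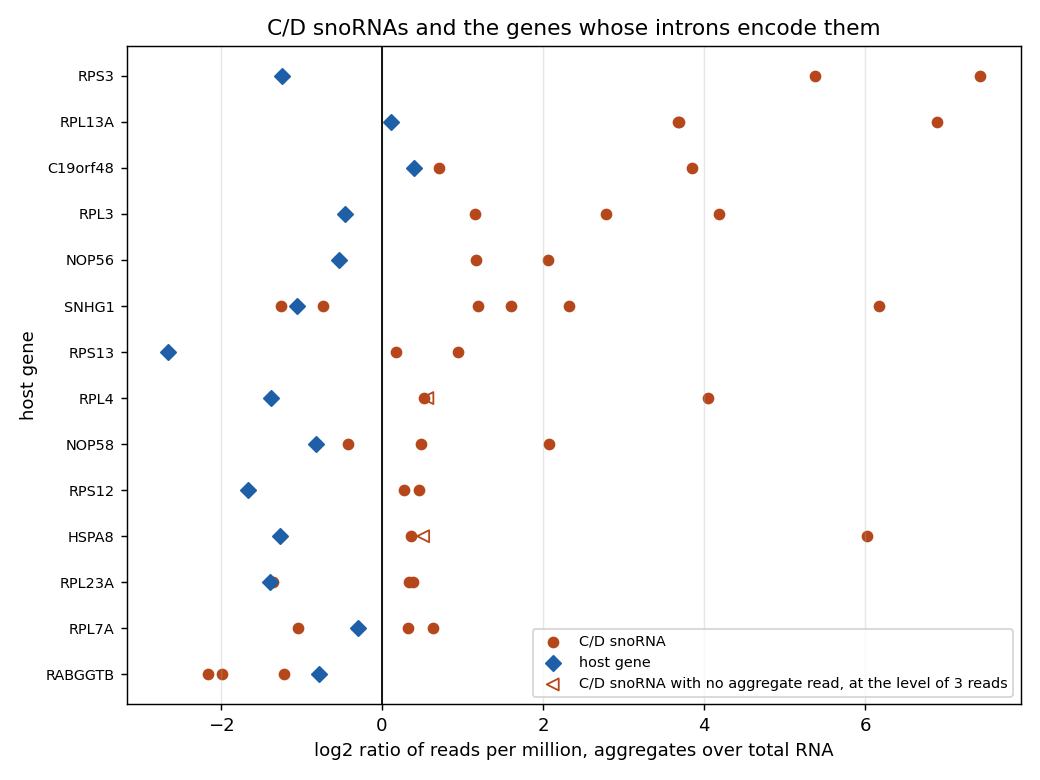
Log2 ratio of RPM, aggregates over total RNA, for host genes (blue diamonds) and the C/D snoRNAs in their introns (orange circles; open triangles are members listed at 0 in the aggregates, drawn at 3 reads), 1 row per host. Most circles lie to the right of the diamond in their row, and members of 1 host spread widely, as in SNHG1 with ratios from 0.42 to 71.7 on the linear scale.

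Members of 1 host did not move as a block. SNHG1, a long non-coding RNA whose introns hold a series of C/D snoRNAs, fell by 1.02 on the log2 scale. Its members SNORD22, SNORD25 and SNORD26 had ratios of 71.7, 5.00 and 3.04, SNORD28 had 2.27, and SNORD27 and SNORD30 had 0.605 and 0.42. RPL3 fell by 0.47, with SNORD83B at 18.2, SNORD83A at 6.87 and SNORD43 at 2.23. RABGGTB, at −0.79, was the host whose 3 members all lay below it. SNHG12, host of SNORD99, was called higher, with a change of 1.04 ± 0.15 (limma adjusted p = 0.0117). SNORD99 itself, with 30, 66, 6 and 29 reads, was not called, although its ratio of 4.85 lay above the host's 2.10.

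The messenger RNAs of the proteins that build and use C/D snoRNAs went the other way from the largest snoRNA changes. Of 20 such genes tested in HEK293 cells, limma called 0 higher and 13 lower (0 and 14 at an unadjusted p under 0.05), where 26.2% of all genes were called higher and 26% lower, with a median change of −0.53 beside a median of 0.02 over all genes. FBL, the methyltransferase, stood at 185 ± 6.88 FPKM in total RNA and 107 ± 7.2 FPKM in the aggregates (SD, n = 2), a change of −0.79 ± 0.09 (limma adjusted p = 0.00371). NOP58, a core protein, stood at 145 ± 6.32 and 82.6 ± 7.55 FPKM (−0.80, limma adjusted p = 0.00436). RPAP3 and MPHOSPH10, an assembly factor and a U3 partner, had the changes −1.27 ± 0.12 and −1.12 ± 0.09 (limma adjusted p = 0.00248 and 0.00217). Fewer were called lower without either total RNA library, where 1 sample stayed in a group and the share of all genes called is not given here.

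In mouse brain the C/D share was mostly 1 gene. Of 7991 C/D reads over the 12 libraries, Snord17 took 75.6% and Snord15a 6.24%. In total RNA the members took 54.4 and 318 RPM in WT tau mice and 470.4 and 175 in P301L tau mice. In the sarkosyl fraction they took 23.9 and 80.2 in WT and 124 and 48.1 in P301L. In the IP they took 16.6 and 41.8 in WT and 64.6 and 67.1 in P301L. In both genotypes the IP libraries lay below the total libraries, while the sarkosyl fraction overlapped total RNA in WT and did not in P301L. The order of IP and total RNA was not particular to C/D members. H/ACA snoRNAs also lay lower without overlap, at 11.5 and 17.3 RPM in the WT IP and 18.4 and 21.7 in the P301L IP. The scaRNAs went from 71.7 and 169 RPM in WT total RNA to 24.7 and 27.4 in the IP. In P301L they went from 164 and 138 to 30.1 and 64.3. The log2 ratio of mean C/D shares was −2.29 for P301L IP and −2.67 for WT IP. Its size hung on single total RNA libraries: with each library left out it ran from −2.84 to −1.41 in P301L, smallest without P301L total replicate 1, and from −3.49 to −0.90 in WT, smallest without WT total replicate 2. Without Snord17 these were 0.30 and −0.52, and without Snord17 and Snord15a the members took between 11.1 and 32.9 RPM in every library. Replicates of total RNA differed more than the genotypes did, and H/ACA snoRNAs showed the same split, with 41.7 and 206 RPM in WT total RNA and 144 and 90.2 in P301L.

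**Figure D4:**
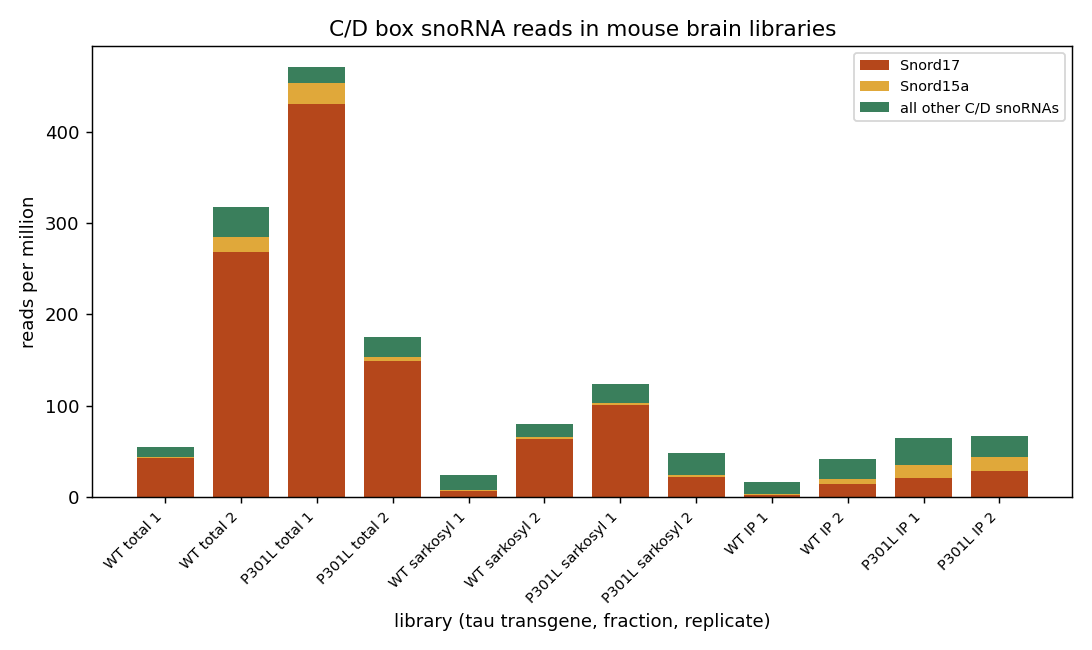
RPM on C/D snoRNAs in each of the 12 mouse libraries, stacked as Snord17, Snord15a and all other members. Snord17 makes up most of each total RNA bar, the other members stay between 11.1 and 32.9 RPM, and the replicates of total RNA differ widely (54.4 and 318 in WT tau mice, 470.4 and 175 in P301L tau mice).

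Of the 99 mouse members, 2 passed the read filter, Snord17 and Snord15a, and Snord17 was called lower in the IP of both genotypes. Over all 13016 genes tested, 35.5% were called higher and 21.1% lower in the P301L IP, and 19.8% and 18.8% in the WT IP. Snord17 (chr2:144265982-144266202 in the GRCm38.p6 RefSeq annotation, inside Snx5) stood at 177 and 1129 FPKM in WT total RNA and at 7.19 and 58.3 FPKM in the WT IP. Its change was −4.35 ± 1.21 (limma adjusted p = 0.0151). In P301L mice it stood at 1807 and 624 FPKM in total RNA and at 89.3 and 121 FPKM in the IP, a change of −3.34 ± 1.21 (limma adjusted p = 0.0341). The IP lay below total RNA without overlap in both genotypes, although replicates of 1 group differed by several times, with replicate 2 the higher in all 3 WT fractions. The difference between the genotypes' changes was 1.01 ± 1.71 (limma adjusted p = 0.707), where 6.81% of all genes were called positive and 3.53% negative.

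The Snord17 calls did not hold without each of several libraries, while the change stayed negative. With each library left out it ran from −4.11 to −2.57 in P301L and from −5.78 to −2.92 in WT. The P301L call was lost without P301L IP replicate 1 (limma adjusted p = 0.127), without P301L IP replicate 2 (0.0742) and without P301L total replicate 1 (0.169), and under the filter of 1 FPKM in 2 libraries (0.0825). The WT call was lost without WT IP replicate 1 (0.134) and without WT total replicate 2 (0.144). With the length trend removed neither was called, at −2.05 and −2.80 (limma adjusted p = 0.106 and 0.0606). In the sarkosyl fraction Snord17 stood at 26.3 and 268 FPKM in WT and at 421 and 92.9 FPKM in P301L, changes of −2.39 and −2.42 that were not called (limma adjusted p = 0.797 and 0.183). There 0.023% and 0.223% of all genes were called higher and lower in WT, and 10.2% and 3.89% in P301L. Its host Snx5, a sorting nexin gene, was lower in the IP as well, by smaller amounts of −0.45 in WT and −0.72 in P301L (limma adjusted p = 0.0454 and 0.00329). In total RNA Snord17 did not differ between the genotypes beyond its spread (1.24 ± 1.21, limma adjusted p = 0.506), where 7.04% of genes were called higher and 8.11% lower in P301L.

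Snord15a (chr7:99482785-99482932, inside Rps3) did not follow Snord17 in the IP. It stood at 7.44 and 109.5 FPKM in WT total RNA and 8.89 and 38.9 FPKM in the WT IP, and at 157 and 33.8 FPKM in P301L total RNA and 89.4 and 102 FPKM in the P301L IP. The IP and total libraries overlapped in both genotypes, and the changes of −0.62 ± 1.04 and 0.38 ± 1.04 were not called (limma adjusted p = 0.665 and 0.772). In the sarkosyl fraction Snord15a had changes of −1.56 in WT and −2.16 in P301L, not called either (limma adjusted p = 0.858 and 0.165). Those of Snord17 were −2.39 and −2.42. Rps3 itself was lower in both IPs, by −1.40 in WT and −0.87 in P301L. U8, as mouse Snord118 (chr11:69073426-69073562, in no other gene), had 106 reads in all and ranged from 0 to 61.7 FPKM, with the highest level in WT total replicate 2. It was too thin to test, as were Snord71 with 131 reads and Snord53 with 102. A looser filter, 1 FPKM in 2 libraries, let 50 members into the tests. Under it 5 were called higher and 4 lower in the P301L IP (26% and 15% of all genes), 3 and 2 in the WT IP (13.9% and 12.4%), and 0 and 1 in the P301L sarkosyl fraction (1.51% and 1.21%). Most of these members had few reads, since 30 of the 54 detected members had 20 or fewer over all 12 libraries.

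The imprinted Snord116 cluster, listed at 0 in the HEK293 tables, was detected at a low level in the brain. Of 17 listed copies, which lie inside the long non-coding RNA Snhg14, 9 had reads, 193 in all. Summed over copies, they took 0.734 and 1.31 RPM in WT total RNA and 2.63 and 5.94 in the WT IP. In P301L mice they took 1.12 and 1.97 RPM in total RNA and 6.42 and 4.10 in the IP. In both genotypes the IP libraries lay above the total libraries, the opposite order to Snord17, and no copy passed the filter to be tested. Reads from Snhg14 introns cannot be told apart from Snord116 reads here. Snhg14 stood at 76.8 and 93.9 FPKM in WT total RNA and at 241 and 254 FPKM in the WT IP, and was called higher there (1.53 ± 0.13). In P301L mice it stood at 123 and 107 FPKM in total RNA and at 121 and 133 FPKM in the IP and was not called (0.15 ± 0.13, limma adjusted p = 0.342), a difference between genotypes of −1.38 ± 0.18 (limma adjusted p = 0.00964).

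Of the 20 mouse genes for C/D snoRNA proteins, limma called 0 higher and 7 lower in the WT IP (1 and 9 at an unadjusted p under 0.05), and 5 higher and 5 lower in the P301L IP. Over all genes 19.8% and 18.8% were called in the WT IP and 35.5% and 21.1% in the P301L IP, so the P301L counts lie near or below the background. Snu13, which binds the C/D motif, was lower in both (−1.26 ± 0.15 in WT and −1.57 ± 0.15 in P301L). The assembly factor Znhit3 (−0.92 and −1.16) and the U3 partner Imp3 (−1.43 and −0.87) were also lower in both. The higher calls of the P301L IP, among them Znhit6 at 0.63 and Nolc1 at 0.51, depended on scaling, since all genes had a median change of 0.16 there and 2 of the 5 higher calls were left after centring on the median. Markers of brain cell types also differed between the total RNA groups, with Gfap, an astrocyte gene, at 62.7 ± 3.95 FPKM in WT and 357 ± 5.48 FPKM in P301L, and Camk2a at 157 ± 5.07 and 46.3 ± 13.2 FPKM (SD, n = 2). Their part in the snoRNA levels was not tested.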

How the data were processed

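RNA was sequenced from random-primed, ribodepleted libraries (KAPA RNA HyperPrep with RiboErase for HEK293, NuGen Ovation SoLo for mouse, per the labels' protocols). The authors aligned reads with STAR 2.6.0c to GRCh38.p13 or hg38 and GRCm38.p6, per the submitters' processing notes; how reads were then counted, and with which annotation, is not stated in any source at hand. The authors deposited FPKM values. The mouse tables name no unit, which was inferred from their values. Low FPKM steps gave back whole reads for 100% of values, and these set library depth and filters. In HEK293, 63 repeated rows were dropped; mouse gene IDs matched a symbol for 45092 of 45093.

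The tests used limma 3.58.1 (R 4.3.3, trend) on log2(FPKM + 1), adjusted over all genes, with 1 fit of the 4 HEK293 libraries (residual df 2) and 1 fit of all 12 mouse libraries by group (residual df 6). Genes needed 10 reads expected in the shallowest library. Python 3.11.15 with scipy 1.17.1 gave intervals and correlations. The fits were also run on simulated counts. Their replicate spread was a fixed setting, not taken from these libraries, so that run does not check the calls given here. Named members were those with the largest called changes and enough reads, those called in mouse, and those with roles beyond ribosomal RNA methylation; SNORD17, SNORD26, SNORD43, SNORD46, SNORD88A, SNORD49A, SNORD91B and the host examples were picked after their values were seen. Members and lists were chosen with earlier results of these data known. The 96 h samples were not used. Results for 1 host gene are not reported here. Alternatives were another pseudocount, filters, voom on recovered reads, median centring, rescaling without mitochondrial and small RNA, removal of a length trend, a replicate block and leaving out each library.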

Additional observations from a re-analysis of the deposited data

Results flagged for a closer look

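For 4 genes tied to the C/D snoRNAs the change in the IP differed between the genotypes in limma's test of the difference, taken as P301L minus WT over all genes tested. The genes looked at were the 20 protein genes, Snx5, Rps3 and Snhg14. Over all 13016 genes tested 6.81% were called positive and 3.53% negative, and the median difference was 0.15. Snhg14, which holds the Snord116 copies, had a difference of −1.38 ± 0.18 (adjusted p = 0.00964, limma). Among genes for snoRNA proteins, Nolc1 had 0.74 ± 0.19 (adjusted p = 0.0358, limma), Rpap3 0.69 ± 0.18 (adjusted p = 0.0377, limma) and Rrp9 0.78 ± 0.22 (adjusted p = 0.0485, limma). With median centring 0 of the 20 protein genes kept such a call. Neither Snord17 nor Snord15a, the C/D snoRNAs that could be tested, had such a call.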

How the results depend on the processing

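In the HEK293 comparison the count of higher members was 46 with the FPKM filter, 1 with the read filter set on total RNA alone, 13 with the length trend removed and 24 to 25 when each library was left out, and pseudocount 10, voom, median centring and rescaling kept it within 1.5 times. The count of lower members was 10 with the FPKM filter, 4 with the length trend removed and 5 with 10 reads required in each total RNA library. Under that last requirement, leaving out each library gave 0 to 66 higher and 0 to 26 lower members, and removing the length trend gave 19 lower. Removing the length trend turned the sign of SNORD43 (−2.71), SNORD26 (−2.04), SNORD25 (−1.40), SNORD35B (−0.57), SNORD83A (−0.48), SNORD84 (−0.18), SNORD96A (−0.16), SNORD68 (−0.016) and, in the WT IP, Snord15a (0.95).

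In mouse the FPKM filter gave 5 higher and 4 lower members in the P301L IP, 3 and 2 in the WT IP and 1 lower in the P301L sarkosyl fraction. The length trend removed left 0 lower in both IPs, and leaving out each library gave 0 to 1. Over these fits Snord15a ranged from −0.71 to 1.47 in the P301L IP, from −2.48 to 1.24 in the WT IP, from −3.41 to 0.30 in the WT sarkosyl fraction, from −0.85 to 2.86 in the IP difference between genotypes and from −0.58 to 3.13 between total RNA of the genotypes. Snord17 ranged from −0.42 to 2.44 and from −0.088 to 2.58 in those last 2. The log2 ratio of C/D shares was 3.26 in HEK293 and −1.06 in the P301L IP when FPKM was summed. Without the member with the most reads it was 0.30 in the P301L IP, −0.52 in the WT IP and −0.43 in the P301L sarkosyl fraction, and between total RNA of the genotypes it ranged from −0.091 to 2.57 with each library left out. The cause of these shifts was not tested.

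The correlation of deviations between same-numbered libraries was 0.08 in HEK293. In WT tau mice it was 0.30, 0.25 and 0.18 between the fractions, so these libraries deviated together. In P301L mice it was 0.23 between total RNA and IP and −0.22 between each of these and the sarkosyl fraction, and the labels name no shared mouse, so the numbers were not taken to pair libraries. A replicate block, which pairs them, left 25 higher and 0 lower members in HEK293, and 1 lower in each mouse IP. With 10 reads in each total RNA library it gave 45 higher and 7 lower. The share of all genes called with the block is not given here, so these counts are not a result about the members. Crossed numbers for the P301L total and IP libraries also gave 1 lower in each IP. Over members named or called, 585 results kept their direction and side of the threshold, 66 lost the call and 20 turned sign. In the shallowest HEK293 library 3 reads of an 80-base gene equal 42.7 FPKM, which limits how low a level can be seen.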
